A study of Mus musculus with 5 samples.

Results

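Gluconeogenesis builds glucose from lactate, glycerol and amino acids, and 6 genes of this route were followed in single epithelial cells of the distal small intestine: Pck1, Fbp1, G6pc, Slc37a4, Pcx and Ppargc1a. They were taken by symbol, and all 6 were found among the 27998 genes of the count matrices. The cells came from C57BL/6 mice aged 8 to 12 weeks that had either a small bowel resection, in which a length of small intestine is removed, or a sham operation. There were 3 sham libraries and 2 resection libraries of droplet-based 3′ RNA sequencing, in which each captured transcript is counted once by its unique molecular identifier (UMI). The labels number the libraries without saying that each came from a separate mouse, so the p-values measure the spread between libraries, which may be partly technical. The feeding state of the mice and the time since surgery are not given in the sources used here.

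Liver and kidney are the classical gluconeogenic organs, and the small intestine also carries the enzymes. Pcx encodes pyruvate carboxylase, the mitochondrial enzyme that turns pyruvate into oxaloacetate. Pck1 encodes the cytosolic phosphoenolpyruvate carboxykinase, which makes phosphoenolpyruvate from oxaloacetate and serves glyceroneogenesis as well. Fbp1 encodes fructose-1,6-bisphosphatase, which bypasses the phosphofructokinase step of glycolysis. G6pc encodes the catalytic subunit of glucose-6-phosphatase in the endoplasmic reticulum, and Slc37a4 encodes the transporter that carries glucose-6-phosphate to it. Ppargc1a encodes PGC-1α, a transcriptional coactivator of mitochondrial genes that in liver acts on the promoters of Pck1 and G6pc.

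On the mouse build GRCm38, the build named in the submitters' processing notes, the GENCODE annotation places Pck1 (ENSMUSG00000027513) at chr2:173153048-173159273 on the plus strand with up to 10 exons. G6pc (ENSMUSG00000078650) lies at chr11:101367561-101377903 on the plus strand with up to 5 exons, and Slc37a4 (ENSMUSG00000032114) at chr9:44396852-44402968 on the plus strand with up to 9. Pcx (ENSMUSG00000024892) spans chr19:4510472-4621752 on the plus strand with up to 21 exons, and Ppargc1a (ENSMUSG00000029167) spans chr5:51454250-51567726 on the minus strand with up to 13. Fbp1 (ENSMUSG00000069805) lies at chr13:62864753-62888282 on the minus strand with up to 7 exons, beside its relative Fbp2 at chr13:62836877-62858422 on the same strand. Whether reads could be shared between these related genes was not tested.

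The promoters of Pck1 and G6pc are shown because these genes carry an early and the last step of the route, and in liver respond to the same hormones. RefSeq sequence of build GRCm38.p6 was read for the 250 bases before the RefSeq start of each gene, and all 6 genes matched an entry. For Pck1 and G6pc that start, the base after the window, lies inside the longer GENCODE gene given above, so the windows run past the GENCODE start, and distances are counted from the RefSeq start. The Pck1 window is chr2:173152823-173153072 and the G6pc window chr11:101367466-101367715, both on the plus strand and printed 5′ to 3′. Capitals mark the matches to the motifs searched.
Pck1 promoter: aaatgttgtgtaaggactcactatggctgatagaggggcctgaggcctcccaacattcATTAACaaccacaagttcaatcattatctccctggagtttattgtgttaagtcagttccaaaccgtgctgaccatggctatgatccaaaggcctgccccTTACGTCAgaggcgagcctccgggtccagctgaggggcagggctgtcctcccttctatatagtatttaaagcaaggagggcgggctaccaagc
G6pc promoter: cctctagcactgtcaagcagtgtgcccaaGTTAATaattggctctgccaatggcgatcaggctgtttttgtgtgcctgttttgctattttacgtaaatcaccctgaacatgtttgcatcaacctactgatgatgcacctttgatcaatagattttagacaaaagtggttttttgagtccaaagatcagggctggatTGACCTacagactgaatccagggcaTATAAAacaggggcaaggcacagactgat
Motifs were searched as exact letters on both strands in the 250-base windows of 32851 promoters. The cAMP response element was searched as TGACGTCA, which 1.55% of all windows hold, and as TTACGTCA, which 0.447% hold. In the Pck1 window, TTACGTCA stood 93 bases before the start, and GTTAAT, an HNF1 motif held by 6.43% of windows, stood 192 bases before the start on the minus strand, where the plus strand reads ATTAAC. The G6pc window held the TATA box TATAAA at 29 bases, the nuclear receptor motif AGGTCA on the minus strand at 54 bases and GTTAAT at 221 bases before the start. TATAAA was found in 12.4% and AGGTCA in 14.0% of all windows. The windows of Fbp1, Pcx and Ppargc1a held no match, which says only that these letters were not there, while Slc37a4 held AGGTCA in one of its windows and TATAAA in another. A match is a description of the letters and was not tested as a bound site.

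The files held 19404 cell barcodes, of which 18955 passed the filters and 18235 were kept after 720 predicted doublets (3.80%) were removed. The libraries held 1402, 4014 and 2868 barcodes for sham 1 to 3 and 3887 and 7233 for resection 1 and 2, with 11749028 to 41281731 UMIs in all and medians of 4541 to 6239.5 UMIs per cell. Any pair of libraries shared at most 47 barcodes, and at most 1.498% of the smaller library. Cells were clustered without the 6 genes, the pathway lists or mitochondrial genes, and 11 of 20 clusters carried the brush-border markers of enterocytes. These enterocyte-like cells numbered 694, 2327 and 1570 in sham 1 to 3 and 2316 and 4442 in resection 1 and 2. The libraries stood in 2 sets that cut across surgery: sham 1 and resection 1 had median mitochondrial shares of 13.7% and 11.7%, against 8.54%, 7.24% and 9.19% in sham 2, sham 3 and resection 2. Each library also filled its own enterocyte clusters, so that 86.3% of the enterocyte-like cells of sham 1 lay in a cluster led by Gm26870 and Epha2, and 62.5% of those of sham 2 in a cluster led by H2-Aa and Cd74. Values within the library sets are therefore given beside the comparisons.

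Enterocyte-like cells held the highest share of Pck1 and G6pc UMIs among the tested epithelial classes in every library. In CPM (UMIs of a gene per 1000000 UMIs of its class), the level of Pck1 in immature enterocyte-like cells had a median of 11.8% of the enterocyte-like level over the 5 libraries, with a range of 8.54% to 17.0%. In cycling-like crypt cells the median was 8.72% (range 4.65% to 12.5%). Fabp6, the ileal bile acid-binding protein and an abundant enterocyte transcript, stood at 32.3% in immature and 11.4% in cycling-like cells, so Pck1 in cycling-like cells was near the level at which other enterocyte transcripts appeared there. G6pc followed the same order, with medians of 8.57% in immature and 5.06% in cycling-like cells, and Pcx stood at 27.8% and 32.5%.

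Fbp1 had a different distribution. Its level in immature enterocyte-like cells had a median of 132% of the enterocyte-like level, with 169%, 137% and 132% in sham 1 to 3, and in cycling-like cells a median of 150%. The ratios of sham 1 rest on few Fbp1 UMIs in each of these classes. In both resection libraries the order was the other way round, since Fbp1 was lower in immature than in enterocyte-like cells, at a lowest value of 38.1%. Slc37a4 was spread more evenly, with medians of 66.5% in immature and 59.7% in cycling-like cells, and Ppargc1a stood at 62.0% and 24.98%.

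Goblet-like and Paneth-like cells need their content of enterocyte RNA beside these levels. Paneth-like cells held Epcam, an epithelial adhesion gene, at 8.60% to 21.4% of the enterocyte-like level, and Fabp6 at a median of 10.2%. Pck1 at 12.3%, Slc37a4 at 13.8%, Ppargc1a at 10.2% and Fbp1 at 10.2% lay in the same range, G6pc lay below it at 3.20%, and Pcx lay above it at 24.7%, with 47.8% in sham 3 and 43.9% in resection 2. Whether these UMIs came from Paneth-like cells or from enterocyte RNA was not tested. Goblet-like cells held Apoa4, an enterocyte apolipoprotein, at a median of 77.6% and Fabp6 at 43.6% of the enterocyte-like level, and in them Pck1 stood at 67.3%, Slc37a4 at 78.0%, Pcx at 64.9% and Ppargc1a at 62.0%. The part of enterocyte RNA in the goblet-like values was not tested.

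**Figure D1:**
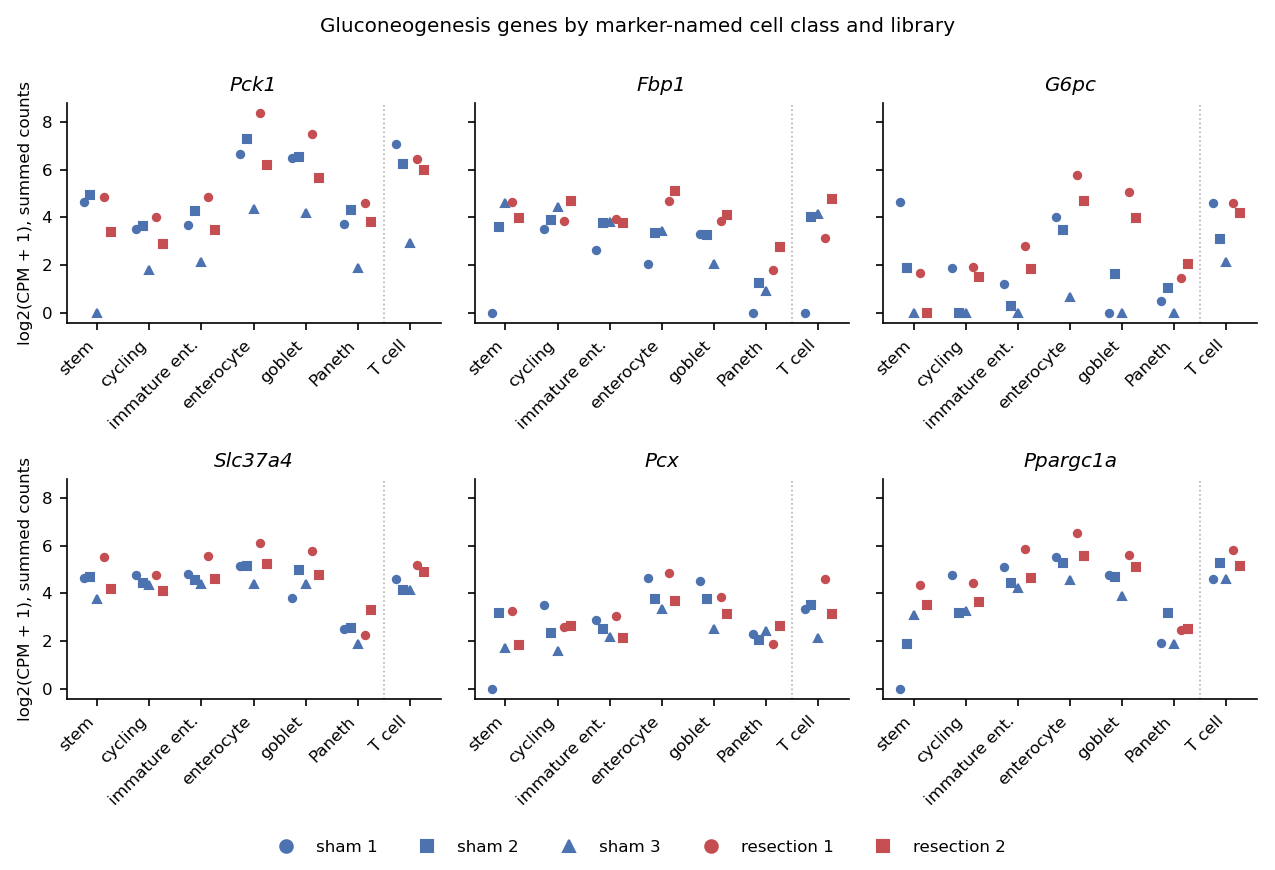
Level of each of the 6 genes on the log2(CPM + 1) scale (vertical axis, UMIs summed over the class, without library scaling) by cell class (horizontal axis), with 1 point per library, shape for the library and colour for surgery. Among the classes left of the dotted line, and leaving out stem cells (8 cells in sham 1), Pck1 and G6pc are highest in enterocytes in every library, whereas Fbp1 in the sham libraries is higher in immature and cycling cells; T cell-like droplets, which carry enterocyte RNA, are at the right.

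Between surgeries, all 6 genes were higher on average after resection in enterocyte-like cells, and none passed the test. The edgeR quasi-likelihood test with Benjamini-Hochberg adjustment called 0 of 10325 genes at an adjusted p under 0.05 (0%), while DESeq2 called 71. At an unadjusted p under 0.05 there were 538 genes (5.21%), of which 314 (3.04%) were higher after resection, and 4 of the 6 genes were among the latter. Both resection libraries stood above every sham library for 1087 genes (10.5%) and for 4 of the 6: Fbp1, G6pc, Slc37a4 and Ppargc1a. In the paragraphs on single genes, levels are CPM scaled by edgeR's trimmed mean of M values, and p-values come from the edgeR test. Log2 changes carry standard errors worked back from each change and the F statistic of that test.

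Pcx, at the entry of the route, was at 20.4, 14.0 and 9.99 CPM in sham 1 to 3 and at 25.5 and 12.8 CPM in resection 1 and 2. The groups overlapped, since sham 1 and sham 2 both exceeded resection 2. The mean was 14.8 ± 5.25 (SD, n = 3) after sham surgery and 19.1 ± 9.00 (SD, n = 2) after resection, a log2 change of 0.39 ± 0.40 (adjusted p = 0.997, edgeR).

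Pck1 differed widely between the libraries of each group. Its levels were 85.0, 171 and 21.3 CPM in sham 1 to 3, and 300.4 and 77.5 CPM in resection 1 and 2. The sham libraries thus spanned the value of resection 2, and only resection 1 stood above them all. The log2 change was 1.03 ± 0.82 (adjusted p = 0.997, edgeR), with means of 92.5 ± 75.3 and 189 ± 158 CPM, and it became -0.25 when resection 1 was left out. Within the library sets, here and below, levels were compared as log2(CPM + 1), with the log values of sham 2 and sham 3 averaged. Resection 1 was higher than sham 1 by 1.81, and resection 2 was higher than the averaged log values by 0.34. The plain mean of sham 2 and sham 3 in CPM lay above resection 2, so the sign of the latter difference depends on the scale.

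Fbp1, at the bypass of phosphofructokinase, was at 2.63, 10.3 and 10.5 CPM in sham 1 to 3 and at 22.5 and 35.5 CPM in resection 1 and 2. The groups did not overlap, and sham 1 stood apart at the low end on 12 UMIs, against 100 and 113 in the other sham libraries and 314 and 740 after resection. The means were 7.81 ± 4.49 and 29.0 ± 9.15 CPM, a log2 change of 1.84 ± 0.49 with an unadjusted p of 0.00634 and an adjusted p of 0.604 (edgeR). The differences within the sets were 2.70 and 1.68 on the log2 scale. With the library set as a term in the model, Fbp1 passed the threshold (log2 change 2.16, adjusted p = 0.0492, edgeR). It did not pass in edgeR after thinning (0.466) or with clustering scaled within libraries (0.564), nor with DESeq2 (0.0851). Leaving out sham 1, sham 2 or sham 3 gave adjusted p-values of 0.383, 0.857 and 0.817 (edgeR).

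G6pc, whose enzyme releases free glucose, was at 12.9, 11.1 and 0.653 CPM in sham 1 to 3 and at 50.2 and 26.5 CPM after resection. Sham 3 was far below the other sham libraries, with 7 UMIs against 59 in sham 1 and 108 in sham 2, while resection 1 and 2 held 700 and 553. The groups did not overlap, and the log2 change was 2.27 ± 0.85 with an unadjusted p of 0.0304 and an adjusted p of 0.886 (edgeR). Within the sets G6pc was higher after resection by 1.88 and 2.62 on the log2 scale. With the library set as a term the adjusted p was 0.344 (edgeR), and DESeq2 gave 0.99999.

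Slc37a4, the partner transporter of G6pc, was at 29.2, 38.0 and 21.9 CPM in the sham libraries and at 63.4 and 38.8 CPM after resection. Resection 2 and sham 2 were almost level, so the separation of the groups rested on a small gap. The log2 change was 0.78 ± 0.33 (unadjusted p = 0.0451, adjusted p = 0.936, edgeR), with 1.10 and 0.41 within the sets.

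Ppargc1a, the coactivator, was at 37.9, 41.8 and 24.3 CPM in sham 1 to 3 and at 84.0 and 49.3 CPM in resection 1 and 2. The groups did not overlap, and resection 1 again held the highest value. The log2 change was 0.95 ± 0.34 (unadjusted p = 0.0249, adjusted p = 0.861, edgeR), and the within-set differences were 1.13 and 0.61. By the averaged log values, all 6 genes were higher after resection inside both library sets, as were 30.4% of the 10325 genes. For Pck1 and Pcx, however, resection 2 lay below sham 2.

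**Figure D2:**
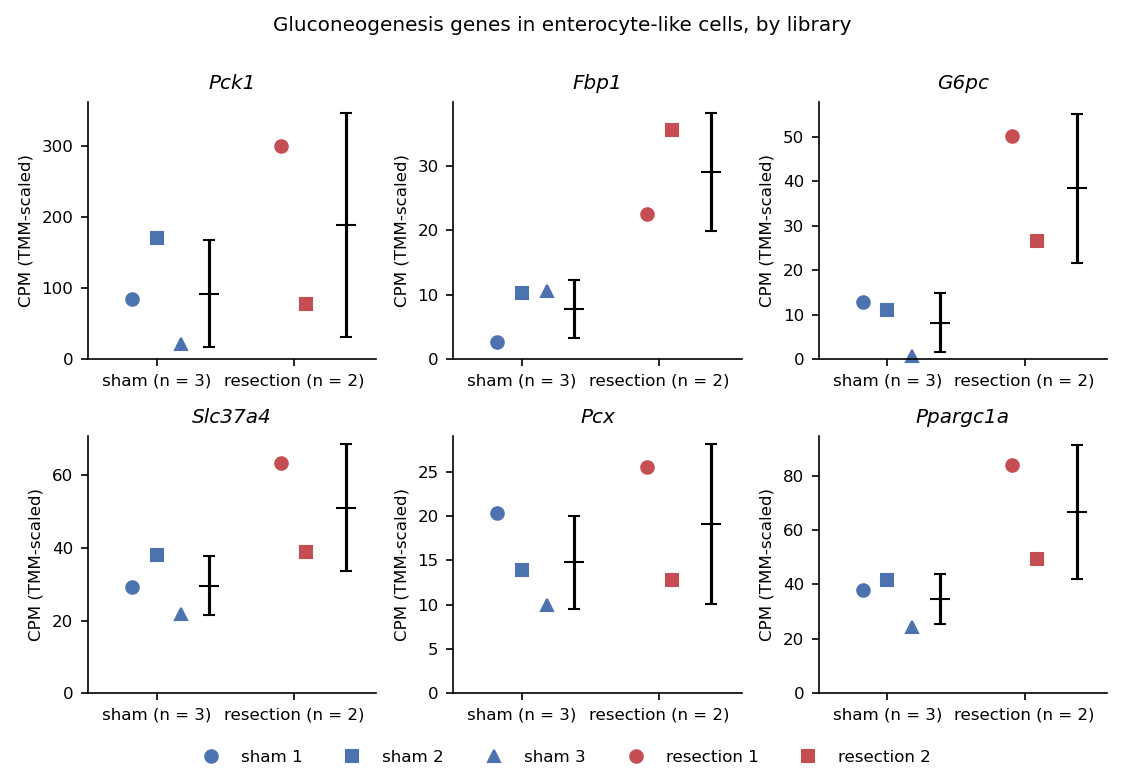
Level of each gene in enterocyte-like cells (vertical axis, CPM scaled by edgeR, from 0) in each library, grouped as sham and resection, with marker shapes for single libraries and bars for the group mean ± SD. Both resection libraries lie above all 3 sham libraries for Fbp1, G6pc, Slc37a4 and Ppargc1a, and overlap them for Pck1 and Pcx.

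Other measures moved with the same libraries. Fabp6, which marks the ileum, was at 28919, 30661 and 48303 CPM in sham 1 to 3 and at 7066 and 23187 CPM in resection 1 and 2, and Apoa4, which is more abundant in proximal intestine, was at 563, 794 and 228 CPM against 7963 and 4158 CPM. Resection 1, the library with the most Pck1, G6pc, Slc37a4, Pcx and Ppargc1a, also had the least Fabp6 and the most Apoa4. Markers of other cells in enterocyte-like cells were present in both groups: the 8 Paneth markers summed to 1559 to 7306 CPM in sham and 2842 and 2916 CPM in resection libraries, and 8 of 9 T cell markers were found and summed to 21.8 to 50.9 CPM and 15.6 and 41.4 CPM. The part of regional identity and of these markers in the differences between surgeries was not tested.

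Shares of cells were compared after each cell was thinned to 2000 UMIs, which left out no enterocyte-like cell. Pck1 was seen in 14.4%, 22.4% and 4.14% of enterocyte-like cells in sham 1 to 3 and in 40.6% and 13.0% in resection 1 and 2, against 31.8%, 35.2%, 10.3%, 62.4% and 23.7% before thinning. The exact 95% binomial intervals, which cover counting error only, were 38.6% to 42.7% in resection 1 and 20.8% to 24.2% in sham 2, the highest library of each group. Resection 2, at 12.0% to 14.0%, overlapped the interval of sham 1 and lay below that of sham 2.

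Fbp1 was seen in far fewer thinned cells, at 0.576%, 2.11% and 2.23% in the sham libraries and 5.14% and 6.39% after resection. G6pc was seen in 2.88%, 2.36% and 0.191% against 10.2% and 5.31%. For both genes the intervals of the resection libraries lay above those of all 3 sham libraries: 4.27% was the lowest bound after resection and 3.09% the highest in sham libraries for Fbp1, and 4.67% and 4.42% for G6pc. The shares come from the same counts as the levels above, so they are no separate evidence. How many of all genes show such a gap was not counted, and the intervals of Slc37a4, Pcx and Ppargc1a are not given here. Before thinning the shares were 1.73%, 3.82% and 6.69% against 11.8% and 13.8% for Fbp1, and 7.49%, 4.43% and 0.446% against 22.5% and 11.4% for G6pc.

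As a background for these shares, T cell-like droplets held Pck1 in 21.2%, 9.92% and 2.44% of thinned cells in sham 1 to 3 and in 15.2% and 13.9% after resection. In sham 1 and resection 2 the enterocyte-like share did not exceed this background. The T cell-like droplets, however, carried Epcam at 67.0% to 82.4% and Fabp6 at 39.4% to 67.2% of the enterocyte-like level. They were thus no class free of enterocyte RNA. Paneth-like cells, with little Epcam, held Pck1 in 3.67%, 5% and 0% (0 of 122 cells, exact interval up to 2.98%) of thinned cells in sham 1 to 3 and in 5.68% and 2.93% after resection. Epcam is shared by epithelial cells, so its low level does not show that Paneth-like cells carried less enterocyte RNA. Fbp1 and G6pc were seen in at most 1.47% of thinned Paneth-like cells, while in T cell-like droplets Fbp1 reached 4.88% in sham 3 and 4.51% in resection 2, and G6pc 3.03% in sham 1. The median UMI counts before thinning were 4095 to 5846 in enterocyte-like cells, 4226 to 6805 in T cell-like droplets and 5877 to 19452 in Paneth-like cells.

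The 3 enzymes were rarely counted in the same thinned cell. In resection 1, G6pc was seen in 11.2% of enterocyte-like cells with a Pck1 UMI and in 9.60% of those without, and in resection 2 in 6.57% and 5.12%. The corresponding shares were 6.00% and 2.36% in sham 1 and 2.87% and 2.22% in sham 2, and in sham 3 G6pc was seen in no cell with a Pck1 UMI and in 0.199% of the others. The exact 95% intervals of the paired shares overlapped in every library. Pck1, Fbp1 and G6pc were seen together in 0 thinned cells of each sham library and in 5 and 3 cells of resection 1 and 2.

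Among the enterocyte-like clusters, Pck1 varied widely within single libraries. In resection 1 it stood at 242 CPM in the cluster led by Fabp1, Lct and Apoa4, which held 52.4% of the library's enterocyte-like cells, and at 469 CPM in the cluster led by Abcb1a, Sgk1 and Angptl4, which held 40.4%. In resection 2 it ranged from 149 CPM in the cluster led by Cyp3a11 and Fabp2 to 58.9 CPM in that led by Rcan1 and Sis, 13.1 CPM in that led by Gsta1 and Fabp6, and 12.8 CPM in that led by Areg and F3. Sham 2 held 208 CPM in its H2-Aa cluster and 23.9 CPM in the cluster led by Gsta1 and Fabp6. Pck1 was thus low in the Gsta1 cluster in the 3 libraries that filled it, with 3.14 CPM in sham 3.

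The Gsta1, Areg and Rcan1 clusters each held at least 50 cells of sham 2, sham 3 and resection 2, which allows a side-by-side view within a cluster. In the Gsta1 and Areg clusters Fbp1 was at 19.0 and 17.8 CPM in resection 2, against 5.86 and 2.64 CPM in sham 2 and 8.90 and 8.55 CPM in sham 3. In the Rcan1 cluster it was at 51.0 CPM in resection 2, against 8.59 CPM in sham 2 and 12.4 CPM in sham 3, so resection 2 held the most Fbp1 in each of the 3 clusters. In the Gsta1 and Areg clusters G6pc was at 15.3 and 9.13 CPM in resection 2, against 6.31 and 0.879 CPM in sham 2 and 0 and 0.244 CPM in sham 3. In the Rcan1 cluster G6pc was level between resection 2 (26.1 CPM) and sham 2 (25.8 CPM, on 6 UMIs in 60 cells), with 0 UMIs in the 62 cells of sham 3. Pck1 in resection 2 lay between the sham libraries in the Gsta1 and Areg clusters and below both in the Rcan1 cluster, at 58.9 CPM against 146 and 74.5 CPM. With 1 resection library in these clusters no test was made.

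Along the villus, the 6 genes fell into separate patterns. Enterocyte-like and immature cells of each library were ordered by a score of villus tip genes (Ada, Nt5e, Slc28a2, Egfr, Klf4) against 6 villus base genes and cut into 3 parts of equal cell number. From the lower to the upper part Pck1 went from 36.0 to 132 CPM in sham 1, from 35.3 to 265 CPM in sham 2 and from 6.00 to 33.8 CPM in sham 3. In the resection libraries it went from 67.1 to 500.4 CPM and from 15.1 to 144 CPM. Every library increased at each step, and the mean difference between upper and lower part was 2.21 ± 0.61 (SD, n = 5) on the log2(CPM + 10) scale.

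Of 10325 genes, 1642 (15.9%) were higher in the upper part in every library, and 4 of the 6 genes were among them. A mean difference of at least 1 as well was found for 104 genes (1.01%), Pck1 among them, and by the mean difference Pck1 ranked 11 of 10325. G6pc was higher in the upper part in 5 of 5 libraries, with a mean difference of 0.73 ± 0.37 (SD, n = 5), and went from 25.4 to 65.9 CPM in resection 1 and from 4.37 to 13.1 CPM in sham 2. Pcx (0.55 ± 0.41) and Slc37a4 (0.33 ± 0.18) were also higher in 5 of 5 libraries. On the log2(CPM + 1) scale the mean differences of Pck1, G6pc, Pcx and Slc37a4 were 2.62, 1.32, 0.89 and 0.44. Which genes reach a difference of 1 thus depends on the added constant. For these 4 genes the exact two-sided sign-flip permutation test over 5 libraries gave p = 0.063, the smallest it can give, or 0.09375 adjusted over the 6 genes, so the design could not reach the threshold.

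Fbp1 and Ppargc1a showed little slope along the score. The mean difference of Fbp1 was 0.12 ± 0.14 on the log2(CPM + 10) scale, higher in 4 of 5 libraries (exact permutation p = 0.1875, adjusted 0.225). That of Ppargc1a was 0.02 ± 0.22, higher in 3 of 5 libraries (exact permutation p = 0.875, adjusted 0.875). Apoa4, not used in the score, had a mean difference of 3.47 ± 0.81, and Fabp6 one of -0.42 ± 0.17.

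Fbp1 and G6pc had both resection libraries above every sham library in all 3 parts of the score. Slc37a4 did so in the lower and middle parts, Ppargc1a in the upper part, and Pck1 and Pcx in no part. The share of all genes that did so in each part was not counted. The parts hold the enterocyte-like cells compared above, so they are not separate evidence. Fbp1 in the lower part was at 3.87, 7.90 and 9.88 CPM in the sham libraries and at 20.03 and 22.3 CPM after resection. G6pc in the upper part was at 16.6, 13.1 and 1.19 CPM against 65.9 and 33.0 CPM. The upper parts had median UMI counts of 3404 to 5051 per cell, against 4936 to 6612 in the lower parts. Immature cells made up 44.1% of the lower and 3.60% of the upper part in resection 1 but 20.6% and 29.4% in sham 1, so the score did not order the 2 classes alike in all libraries.

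**Figure D3:**
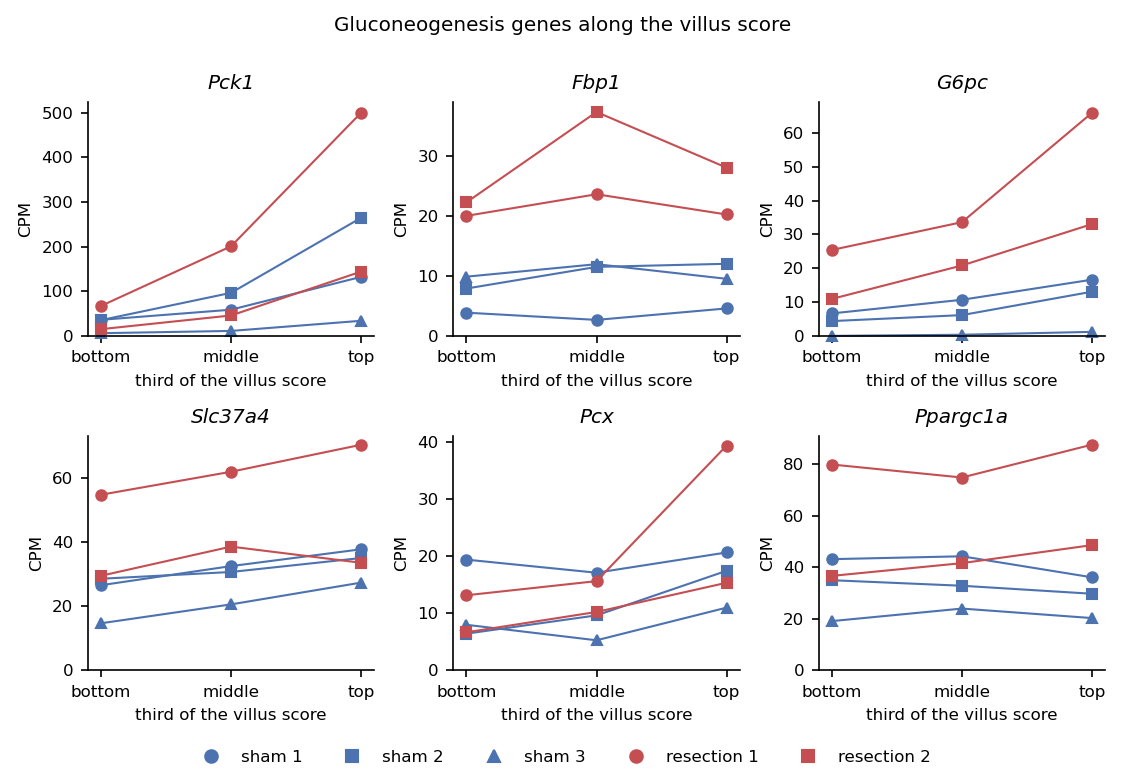
Level of each gene (vertical axis, CPM) in the lower (bottom), middle and upper (top) part of cells by villus score (horizontal axis), with 1 line per library coloured by surgery. Pck1 increases in all 5 libraries, most in absolute terms in resection 1 (67.1 to 500.4 CPM), while Fbp1 and Ppargc1a differ little between the lower and the upper part.

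In immature enterocyte-like cells the genes differed in whether the surgeries were apart. This class joined 2 clusters that followed the library sets. The cluster led by Gm10263 and Dmbt1 held 236 of 237 cells of sham 1 and 756 of 770 of resection 1. It held 3, 1 and 3 cells of sham 2, sham 3 and resection 2. G6pc had 2, 1 and 0 UMIs in sham 1 to 3 and 34 and 16 in resection 1 and 2, where the count of 0 allows a level of up to 0.716 CPM. The groups did not overlap, as for 660 of 9778 genes (6.75%) in this class, and none of the other 5 genes was apart. Pooled over libraries the G6pc level was 13.9 times as high after resection, with a 95% interval of 4.49 to 69.7 that covers counting error only. Such pooled ratios leave out the spread between libraries. They are given only for low-count genes that stood above every sham library, so their direction was set by that choice. The edgeR quasi-likelihood test gave a log2 change of 3.53 ± 0.84, an unadjusted p of 0.00300 and an adjusted p of 0.9999. With 2, 1 and 0 sham UMIs, G6pc passed the filter on low counts here only through the resection libraries. The direction of this test was thus also set in advance, and it is no separate support. The log2 change was 1.75 with doublets kept and 1.72 at a clustering resolution of 0.5, and ran from 2.81 to 4.72 when 1 library was left out. The test called 0 of 9778 genes (0%), with 155 (1.59%) at an unadjusted p under 0.05 and 2 called by DESeq2.

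Fbp1 in immature cells was at 4.40, 14.3 and 14.0 CPM in sham 1 to 3 and at 12.7 and 13.9 CPM after resection, a log2 change of 0.21 ± 0.41 (adjusted p = 0.9999, edgeR). In cycling-like cells it was at 9.41, 15.4 and 22.2 CPM against 11.9 and 27.1 CPM, a log2 change of 0.16 ± 0.43 (adjusted p = 0.9999, edgeR). The surgeries overlapped in both classes, and whether these changes differ from that of 1.84 in enterocyte-like cells was not tested. Ppargc1a in immature cells had a log2 change of 0.71 ± 0.32, Pck1 of 0.63 ± 0.62, Slc37a4 of 0.49 ± 0.27 and Pcx of 0.07 ± 0.38, none past the threshold.

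In cycling-like cells the edgeR test called 0 of 9437 genes (0%), with 124 (1.31%) at an unadjusted p under 0.05 and 2 called by DESeq2. None of the 6 genes was above every sham library there, against 6.25% of all genes, and the log2 change of Slc37a4 was -0.09 ± 0.30.

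In goblet-like cells, Ppargc1a stood above every sham library after either resection, as did 643 of 6291 genes (10.2%), with a log2 change of 0.89 ± 0.39 (unadjusted p = 0.0400, adjusted p = 0.9996, edgeR); 3.61% of genes had an unadjusted p under 0.05. G6pc had 0, 2 and 0 UMIs in the sham and 12 and 19 in the resection libraries, a pooled ratio of 17.0 with a 95% counting interval of 4.31 to 146, and Fbp1 was also higher in both resection libraries. Neither of these passed the filter on low counts. In Paneth-like cells the pooled ratios were 3.81 (1.28 to 13.7) for G6pc and 6.16 (2.26 to 20.9) for Fbp1, on 5 sham UMIs each. Both genes stood above every sham library, but neither passed the filter on low counts there. They are thus not among the 6295 genes tested in this class, of which 6.54% stood above every sham library. An unadjusted p under 0.05 (edgeR) was found for 1.76% of the 6295. The Paneth-like cluster led by Gm10104 and Gm15293 held 208 cells of sham 1 and 169 of resection 1. It held 4, 4 and 0 cells of sham 2, sham 3 and resection 2. The enterocyte RNA that these classes carry, described with the levels, stands beside these values.

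Summed over all epithelial cells, Fbp1, G6pc, Slc37a4 and Ppargc1a were again above every sham library, as were 7.82% of 11707 genes. The log2 changes were 1.36 ± 0.51 for Fbp1, 2.30 ± 0.90 for G6pc, 0.66 ± 0.30 for Slc37a4 and 0.88 ± 0.33 for Ppargc1a. The edgeR test called 0 of these 11707 genes (0%), with 2.87% at an unadjusted p under 0.05 and 33 genes called by DESeq2. In such sums the mix of cell classes and the level per cell cannot be told apart.

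**Figure D4:**
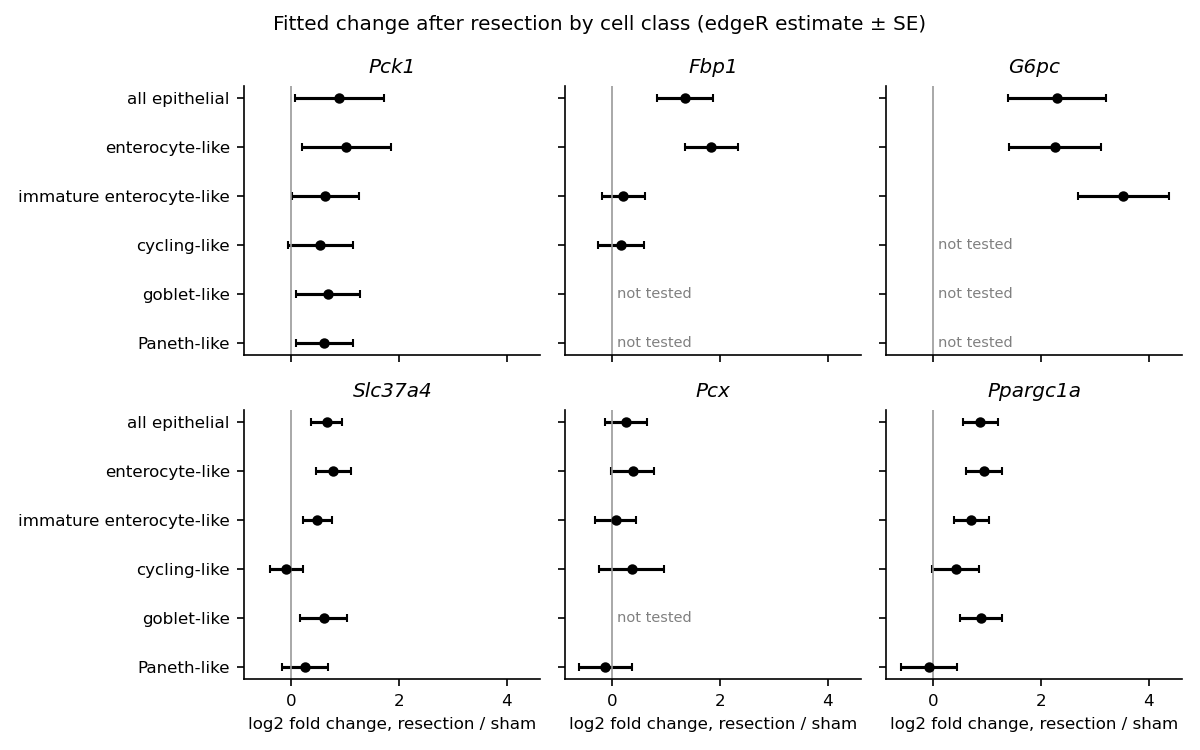
Log2 change of each gene after resection against sham (horizontal axis, edgeR estimate, with bars of 1 standard error) in each class, where "not tested" marks genes under the filter on low counts. No estimate passes an adjusted p of 0.05; in enterocyte-like cells all 6 lie above 0, from 0.39 for Pcx to 2.27 for G6pc.

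The rest of the pathway in enterocyte-like cells showed no common direction. The 6 genes had a median log2 change of 0.99, against -0.02 over all 10325 genes, of which 4909 were higher and 5416 lower. The reversible steps shared with glycolysis had 4 genes higher and 4 lower after resection, with a median of 0.07. Enzymes and carriers of substrate entry had 18 of 20 genes tested, 12 higher and 6 lower, with a median of 0.10. The opposing glycolytic steps had 11 of 14 tested, 6 higher and 5 lower, with a median of 0.05. The edgeR test called no gene of these lists.

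Hk2, a hexokinase that traps glucose in the cell, was at 64.2, 20.7 and 155 CPM in the sham libraries and at 6.17 and 14.4 CPM after resection. Both resection libraries lay below every sham library, as for 8.38% of all genes, and the log2 change was -2.95 ± 0.84 (adjusted p = 0.646, edgeR). Pdk4, a kinase that holds back pyruvate oxidation, had a log2 change of 1.55 ± 0.75 with overlapping groups. Got1, an aspartate aminotransferase, was above every sham library (0.67 ± 0.29), and the glutamine transporter Slc1a5 (-1.01 ± 0.48) and the glycolytic kinase Pgk1 (-0.65 ± 0.34) were below. The aldolase Aldoa (-0.51 ± 0.34) overlapped between the surgeries.

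Of the related isoforms tested, 2 were higher and 2 lower after resection. Fbp2, the second fructose-1,6-bisphosphatase gene, was at 303, 530 and 535 CPM in sham 1 to 3 and at 393 and 577 CPM after resection, a log2 change of 0.09 ± 0.37. Its UMI level, which 3′ counting does not scale with transcript length, was above that of Fbp1 in every library. G6pc3, the ubiquitous glucose-6-phosphatase, had a log2 change of -0.40 ± 0.28, and Ppargc1b, the relative of Ppargc1a, one of 0.18 ± 0.43. None of the 4 isoforms tested passed the threshold.

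For glucose transport, all 3 genes tested were higher on average after resection. Slc2a2, the transporter that lets glucose out of the enterocyte, was at 7.67, 8.52 and 4.85 CPM in sham 1 to 3 and at 179 and 80.7 CPM in resection 1 and 2 (log2 change 4.22 ± 0.43, adjusted p = 0.147, edgeR). It passed in edgeR with the library set as a term (adjusted p = 0.0130), after thinning (0.0410) and without the low-count filter (7.88e-17). With DESeq2 the adjusted p was 9.33e-17. In edgeR it did not pass with RLE size factors (0.151), doublets kept (0.213), clustering scaled within libraries (0.134) or resolution 0.5 (0.199). Nor did it pass without sham 1 (0.271), sham 2 (0.488) or sham 3 (0.265). The log2 change was 3.54 without resection 1 and 4.68 without resection 2. In goblet-like cells Slc2a2 was 1 of 3 genes of 6291 called (0.0477%), with a log2 change of 4.01 ± 0.58 and an adjusted p of 0.0188 (edgeR), or 0.0569 without sham 3 and 0.0762 with the library set as a term. In Paneth-like cells it was the 1 gene of 6295 called (0.0159%), with 3.86 ± 0.59 and an adjusted p of 0.0466 (edgeR), but 0.121 without sham 2, 0.171 without sham 3, 0.211 without resection 1 and 0.0899 with DESeq2. Its level in Paneth-like cells had a median of 4.50% of the enterocyte-like level, below those of Epcam and Fabp6 there, and in goblet-like cells 55.5%, and the part of enterocyte RNA in both calls was not tested. The sham means of Slc2a2 were 4.31 CPM in goblet-like and 0.42 CPM in Paneth-like cells, against 61.1 and 9.19 CPM after resection. In both classes it passed the filter on low counts only through the resection libraries. The direction of both calls was thus set by the filter, and they are no separate support. Slc2a5, the fructose transporter, had a log2 change of 0.75 ± 0.43 in enterocyte-like cells.

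Of 16 transcription factors and coregulators tested, the enterocyte-like cells had 11 higher and 5 lower after resection (median log2 change 0.15). Cebpb, a factor that binds the Pck1 promoter in liver, was at 41.6, 52.0 and 63.1 CPM in the sham and at 27.3 and 28.4 CPM in the resection libraries (log2 change -0.91 ± 0.27, adjusted p = 0.684, edgeR). Creb3l3, a factor of the cAMP response element family, was above every sham library with a log2 change of 1.06 ± 0.30 (adjusted p = 0.652, edgeR).

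**Figure D5:**
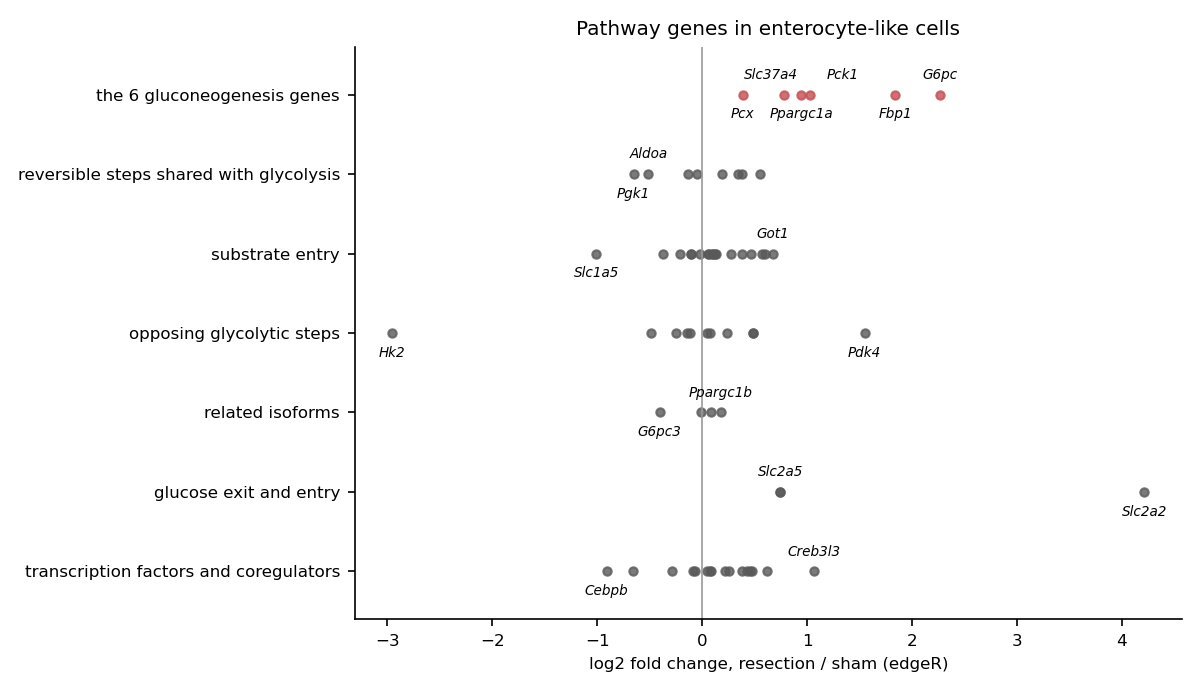
Log2 change after resection against sham in enterocyte-like cells (horizontal axis, edgeR estimate) of each tested gene, by pathway list (vertical axis), with the 6 gluconeogenesis genes in red and the 2 genes of lowest p in each other list named. The 6 genes lie above 0, while the other lists spread on both sides except the 3 glucose transporters.

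Over 34 sums of a library and a class, the genes most like each member were named among 4771 genes of at least 20 CPM, by Pearson's r of log2(CPM + 10). These sums share libraries and depth, so the coefficients are a description. Pck1 was most like Slc15a1, the apical peptide transporter (r = 0.94), Slc2a5 (r = 0.92) and Slc5a4b (r = 0.91), and Slc15a1 in enterocyte-like cells was at 348, 299 and 125 CPM in sham 1 to 3 and at 691 and 230.4 CPM in resection 1 and 2. G6pc was most like the membrane metalloendopeptidase Mme (r = 0.92), Ormdl3 (r = 0.92) and Sec14l2 (r = 0.90). Slc37a4 was most like Aco1, Minpp1 and Efcab14 (r = 0.92, 0.92 and 0.91), and Ppargc1a most like Lpgat1, the lipid transfer protein gene Mttp and Ogdh (r = 0.94, 0.94 and 0.93). Among the members themselves Pck1 tracked Pcx (r = 0.84) and G6pc (r = 0.82) and Slc37a4 tracked Ppargc1a (r = 0.81), whereas Pck1 and Fbp1 had an r of 0.02. Fbp1 and Pcx averaged under 20 CPM in enterocyte-like cells and were not matched to other genes.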

How the data were processed

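The authors deposited 10x Genomics matrices of UMI counts per gene and cell, on GRCm38 (mm10) per the submitters' processing notes; the annotation version is not given in the sources used here. Each library is 1 replicate, 3 sham and 2 resection. Barcodes needed 500 genes or more and a mitochondrial share up to 20%, simulated doublets served to find and remove real ones, and the rest was clustered (scanpy 1.11.5, leidenalg 0.10.2, resolution 1). Clusters were named from markers, a class being scored only where at least 3 of its markers differed between clusters; this rule was set after the data were seen. For classes that reached 20 cells in each library, counts were added up by library and tested with edgeR 4.0.16 (quasi-likelihood, trimmed mean of M values, filterByExpr, Benjamini-Hochberg over all genes of the class, threshold 0.05, two-sided); DESeq2 1.42.0 was an alternative. The test was checked on simulated data. Genes named are the 6 members, the 2 genes of lowest p per pathway list, the 3 most similar genes of members above 20 CPM, and reference genes; Fbp2, Slc2a2 in other classes and Epcam were described after their values were seen. Members, lists and library sets were chosen with earlier results of these data known. Total UMIs set the precision of each level; intervals cover counting error only.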

Additional observations from a re-analysis of the deposited data

How the results depend on the processing

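In enterocyte-like cells, the levels of Fbp1 in sham 1 and of G6pc in sham 3 rested on few UMIs. All UMIs of that class numbered 3888947 in sham 1, 10797571 in sham 2 and 11610325 in sham 3. The cause of these low counts was not tested.

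Counts of genes called by edgeR moved. Without a filter on low counts they were 201 in enterocyte-like, 7 in immature, 24 in goblet-like, 13 in Paneth-like and 18 in all epithelial cells. With the library set as a term they were 13, 10, 1, 19 and 3, and 4 in cycling-like cells. DESeq2 called 71, 2, 5, 4 and 33, and 2 in cycling-like cells. Thinning gave 1 in enterocyte-like and 3 in Paneth-like cells, scaled clustering 5 in goblet-like and 2 in Paneth-like cells, and doublets kept or a resolution of 0.5 gave 2 in Paneth-like cells. Leaving out 1 library gave 0 to 3 in enterocyte-like (3 without resection 2), 0 to 10 in goblet-like and 0 to 9 in Paneth-like cells.

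With the replicate number as a block the calls were 38 in enterocyte-like, 132 in immature, 23 in cycling-like, 92 in goblet-like, 27 in Paneth-like and 151 in all epithelial cells, among them Fbp1 (adjusted p = 0.0404), G6pc (0.0463) and Slc2a2 (0.00898) in enterocyte-like cells, G6pc (0.0296) in immature cells, and Fbp1 (0.0215) and G6pc (0.00878) in all epithelial cells. The labels do not say that numbers pair the libraries; deviations of same-numbered libraries correlated at 0.53 and 0.18 over 10325 genes, sham 3 and resection 2 at 0.49, and only 2 pairs exist. Under the block the log2 change of Pck1 turned to -0.32 in cycling-like and -0.12 in goblet-like cells, and that of Pcx to -0.18 in immature, -0.21 in cycling-like and -0.038 in all epithelial cells. Without the filter on low counts Fbp1 (6.59e-05) and G6pc (1.74e-05) also passed in enterocyte-like cells. In immature cells G6pc entered the main and the block test only through the resection libraries, as described above.

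Leaving out each library in turn, the log2 change of Pck1 ran from -0.25 to 1.84 in enterocyte-like, -0.068 to 1.499 in immature, -0.16 to 1.31 in cycling-like, -0.27 to 1.36 in goblet-like, -0.51 to 1.16 in Paneth-like and -0.16 to 1.69 in all epithelial cells, lowest without resection 1 except in cycling-like cells (without sham 3). Pcx ran from -0.19 to 0.81 in enterocyte-like, -0.39 to 0.41 in immature and -0.14 to 0.58 in all epithelial cells, lowest without resection 1. Fbp1 ran from -0.088 (without sham 1) to 0.42 in immature and from -0.54 (without resection 2) to 0.64 in cycling-like cells, Slc37a4 from -0.31 to 0.11 (without resection 2) in cycling-like cells, and Ppargc1a from -0.55 to 0.60 (without sham 2) in Paneth-like cells and from -0.052 (without resection 2) to 0.082 along the villus score.

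Pcx in immature cells was also -0.11 with the set as a term and -0.27 at resolution 0.5. Slc37a4 in cycling-like cells was 0.12 with doublets kept, 0.031 with scaled clustering and 0.23 after thinning. Ppargc1a along the villus score was -0.026 with the base list alone. The cause of these changes was not tested. At resolution 0.5 and at a mitochondrial share up to 10%, classes with too few cells gave no value.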

Other observations

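Stem-like cells, too few in sham 1 (8 cells) for a comparison of surgeries, held Fbp1 at 10.9 CPM in sham 2 (82 cells), 23.3 CPM in sham 3 (185 cells), 23.8 CPM in resection 1 (73 cells) and 14.8 CPM in resection 2 (224 cells). Pck1, the cytosolic carboxykinase gene, was at 30.05 CPM in sham 2, 28.1 CPM in resection 1 and 9.59 CPM in resection 2 in these cells, and had 0 UMIs in sham 3. G6pc had at most 1 UMI in the stem-like cells of any library.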
